A study of Mus musculus with 14 samples.

Results

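The interferon response and antigen presentation genes are 42 named genes that take part in the response of a cell to interferon or in the presentation of peptides on MHC class I. They were chosen by name and function, with earlier results of these data known. All 42 were found among the 24016 transcripts of the expression table, which lists 1 transcript per gene. The RNA came from C2C12, a line of mouse muscle precursors whose cells fuse into myotubes once serum is lowered. Cells received a pool of siRNAs against Klf5 (siKlf5), a Krüppel-like transcription factor, or a control siRNA (siCtrl). Medium with 2% horse serum then started differentiation, and RNA was sequenced on days 0, 1, 2 and 3. Each siRNA and day has 1 library, 8 in all, from 1 cell line and with no added interferon or virus named in the labels, so a difference within a day has no replicate check.

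Interferons are secreted proteins that act through cell-surface receptors, JAK kinases and STAT factors. Type I interferon brings a complex that holds STAT2 and IRF9 to the interferon-stimulated response element (ISRE), while interferon gamma acts through the gamma-activated site (GAS) and raises IRF1. The genes switched on include sensors of viral RNA, proteins that block viral replication, GTPases that attack intracellular pathogens, and the proteasome subunits, peptide transporter and MHC class I molecules that show peptides to CD8 T cells. Skeletal muscle fibres are known for low MHC class I at rest and for its appearance in inflammatory muscle disease.

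Promoter sequences were searched for the motifs of the interferon response and for a GC box. A RefSeq table of promoters (GRCm38.p6) held 32 of the 42 genes, with 250 bases before and 50 bases after each start site. The ISRE core, searched on both strands as GAAA, any 2 bases and GAAA, lay in the window of 15 of the 32 genes (46.9%), beside 3.44% of all 32851 promoters and 3.99% of all 27025 genes. The GAS motif TTCNNNGAA lay in 8 (25%), beside 8.30% of promoters and 9.55% of genes. A GC box, CCGCCC, a motif bound by Krüppel-like and Sp factors in general, lay in 13 (40.6%), beside 35.7% of promoters and 38.2% of genes. A match describes letters and is not a tested binding site. The ISRE core was thus more frequent in these promoters than in promoters at large, whereas the GC box was about as frequent in both, a description with no test.

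The 250 bases before the start site are given for 7 genes that span the range of levels reported here, 5′ to 3′ along the gene, with ISRE core and GAS matches in capitals. Isg15 and Ifit1 were near 0, B2m and Bst2 were high, Gbp2 and Igtp rose on day 2, and Irf1 carried a GAS and no ISRE core. Coordinates are those of GRCm38.p6.
Isg15 (chr4:156200819-156201068, minus strand): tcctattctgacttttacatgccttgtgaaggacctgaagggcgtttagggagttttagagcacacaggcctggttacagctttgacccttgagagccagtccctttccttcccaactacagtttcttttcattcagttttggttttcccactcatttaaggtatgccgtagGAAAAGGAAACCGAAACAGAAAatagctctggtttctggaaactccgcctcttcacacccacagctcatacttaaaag
Ifit1 (chr19:34640639-34640888, plus strand): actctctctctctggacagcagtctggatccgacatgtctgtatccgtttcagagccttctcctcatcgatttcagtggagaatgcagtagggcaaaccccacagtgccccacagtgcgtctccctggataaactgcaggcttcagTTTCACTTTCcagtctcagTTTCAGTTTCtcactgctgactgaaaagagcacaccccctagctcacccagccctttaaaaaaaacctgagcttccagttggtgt
B2m (chr2:122147437-122147686, plus strand): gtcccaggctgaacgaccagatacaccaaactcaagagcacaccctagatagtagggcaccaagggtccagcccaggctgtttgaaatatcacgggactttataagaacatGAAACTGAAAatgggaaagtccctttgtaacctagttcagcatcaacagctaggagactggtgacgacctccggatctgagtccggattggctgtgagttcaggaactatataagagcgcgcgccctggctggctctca
Bst2 (chr8:71537473-71537722, minus strand): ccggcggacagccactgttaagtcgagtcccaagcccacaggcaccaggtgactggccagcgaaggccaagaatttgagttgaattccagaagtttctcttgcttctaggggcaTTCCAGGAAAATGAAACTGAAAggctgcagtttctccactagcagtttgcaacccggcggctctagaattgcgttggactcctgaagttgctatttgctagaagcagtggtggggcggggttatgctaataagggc
Gbp2 (chr3:142620413-142620662, plus strand): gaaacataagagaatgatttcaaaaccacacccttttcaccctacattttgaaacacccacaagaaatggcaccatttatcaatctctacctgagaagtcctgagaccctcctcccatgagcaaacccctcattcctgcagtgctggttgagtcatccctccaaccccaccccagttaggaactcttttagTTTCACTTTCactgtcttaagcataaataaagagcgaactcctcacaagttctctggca
Igtp (chr11:58199306-58199555, plus strand): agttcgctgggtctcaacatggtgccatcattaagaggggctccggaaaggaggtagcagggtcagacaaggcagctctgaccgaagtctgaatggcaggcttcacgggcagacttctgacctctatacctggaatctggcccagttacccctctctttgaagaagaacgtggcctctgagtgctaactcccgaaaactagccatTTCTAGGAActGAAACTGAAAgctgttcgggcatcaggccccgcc
Irf1 (chr11:53769764-53770013, plus strand): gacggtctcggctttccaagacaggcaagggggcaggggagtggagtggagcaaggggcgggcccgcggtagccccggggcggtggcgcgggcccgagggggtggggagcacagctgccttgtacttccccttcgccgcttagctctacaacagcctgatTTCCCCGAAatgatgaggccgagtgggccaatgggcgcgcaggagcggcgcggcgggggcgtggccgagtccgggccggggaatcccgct
The minus-strand form of the ISRE core reads TTTC, any 2 bases and TTTC, as in Ifit1 and Gbp2. Isg15 held 3 overlapping core matches, Bst2 held 2 directly after an overlapping GAS, and Igtp held a GAS and a core side by side.

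**Figure D1:**
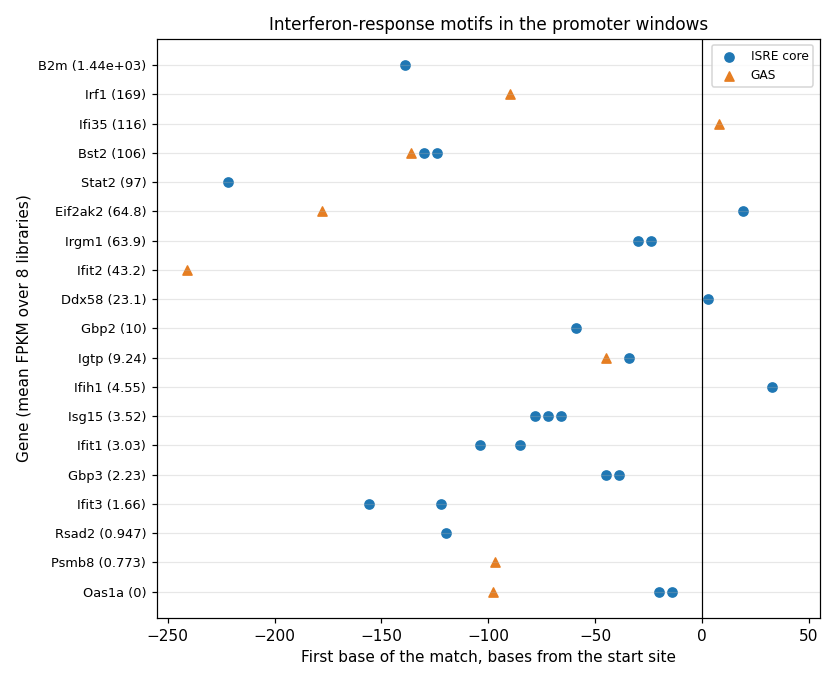
Position of each ISRE core (circles) and GAS (triangles) match on the x axis, in bases from the start site, for the 19 genes with either match, ordered on the y axis by mean FPKM over the 8 libraries. Matches lie in windows of genes at every level, from Oas1a at 0 to B2m at 1444 FPKM.

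Presence of an exact match to the ISRE core did not sort the genes by level, and near matches were not searched. Among genes with a promoter in the table it lay in 7 of the 17 with a mean of at least 10 FPKM and in 8 of the 15 below that. FPKM here are per kilobase of exon with the library total set to 10000000 reads, so they run higher than the usual FPKM.

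The levels ran over a wide range. Of the 42 genes, 7 had a mean of at least 100 FPKM, 13 lay between 10 and 100, 13 between 1 and 10, and 9 below 1. Among all transcripts 25.1% reached 100 FPKM and 48.3% reached 10, against 16.7% and 47.6% of the 42 genes. The highest were the light chain and heavy chains of MHC class I. B2m, H2-K1 and H2-D1 alone made up 59.1 to 67.4% of the summed FPKM of the 42 genes in the 8 libraries. Some genes used as signs of an interferon response, Isg15, Ifit1, Ifit3, Mx1, Oas1a and Rsad2, lay between 0 and 8.49 FPKM in every library. Other interferon-induced genes were higher, such as Ifit2 (29.3 to 59.8 FPKM), Bst2 (80.3 to 150.2), Ifi35 (105 to 126) and Ifi27 (197 to 449).

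**Figure D2:**
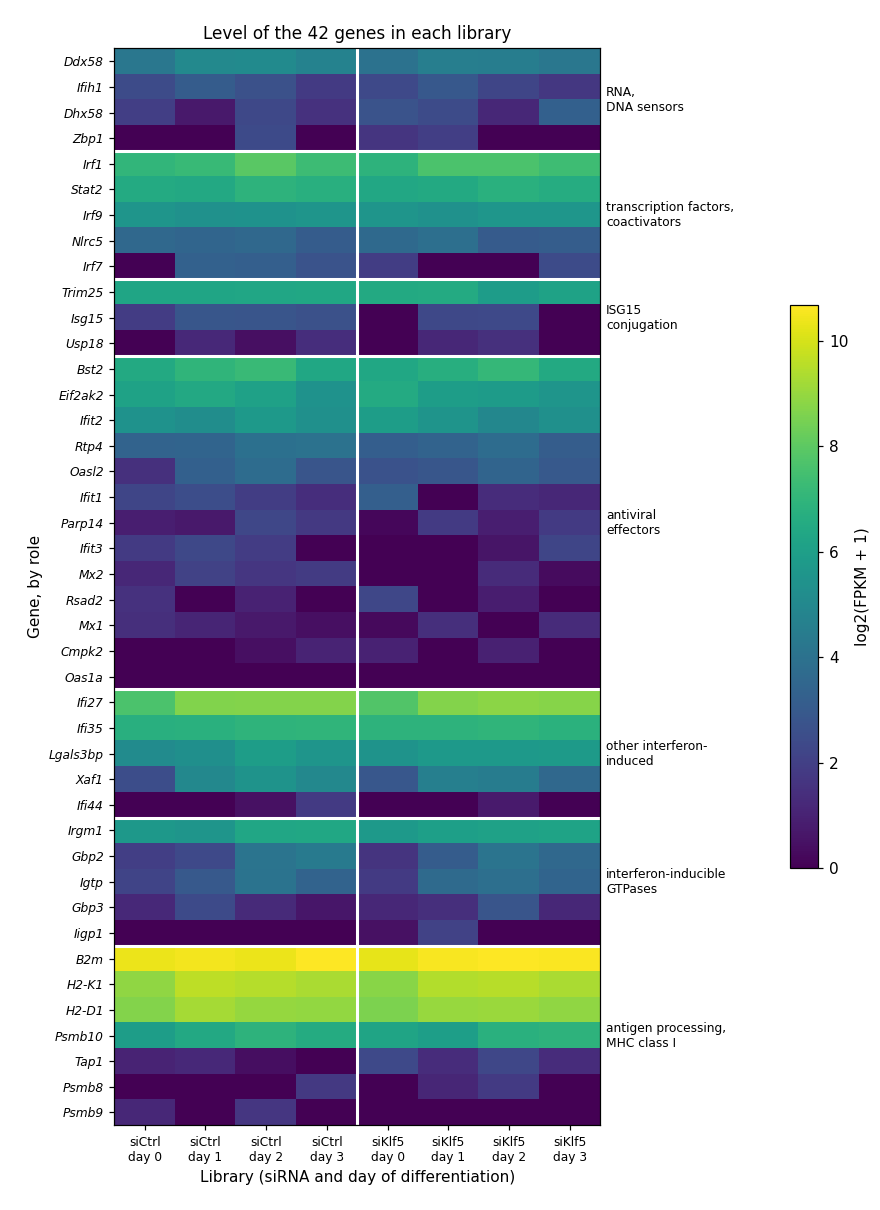
Level of each of the 42 genes (rows, grouped by role) in each of the 8 libraries (columns), as log2(FPKM + 1) on a colour scale from 0 (dark) to the highest value (yellow). B2m, H2-K1, H2-D1 and Ifi27 are bright in every column, while most sensors, Mx, Oas and immunoproteasome rows stay dark.

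In the comparison over time, each later day was set against day 0 with limma on log2(FPKM + 1), with the siRNA as a covariate and p-values adjusted over the 14312 transcripts that averaged 1 FPKM or more. The call was an adjusted p under 0.05, and 33 of the 42 genes entered the fit. The 3 comparisons share the day 0 libraries, and no day has more than 1 library per siRNA. On day 1, 4 of the 33 genes were higher (12.1%, background 6.76%) and 0 were lower (background 10.3%). On day 2, 9 were higher (27.3%, background 11.7%) and 0 lower (background 12.1%). On day 3, 4 were higher (12.1%, background 13%) and 1 was lower (3.03%, background 18%). As deposited, the share on day 2 was above the background and that on day 3 was near it. Other scalings put the day 3 share above the background too. Leaving out either day 0 library brought the day 2 share near it. The median difference of the 33 genes was 0.23, 0.51 and 0.29 (log2) on days 1, 2 and 3, beside -0.08, -0.02 and -0.08 over all transcripts. Ifi27, Xaf1 and H2-K1 were higher on all 3 days, H2-D1 on days 1 and 2, Gbp2 on days 2 and 3, and Irf1, Bst2, Igtp and Psmb10 passed on day 2, with no test between days. In bulk RNA, a change in the share of cells of a type and a change in RNA per cell cannot be told apart.

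The scaling of the libraries moved these counts. With median-ratio scaling 9 genes were higher on day 3 (27.3%, against 15.6% of all transcripts) and 0 lower, and with upper-quartile scaling 7 (21.2%, against 15.5%) and 0. Irf1, Igtp, Psmb10, Irgm1 and H2-D1 then joined the day 3 calls under median-ratio scaling, Igtp, Psmb10 and H2-D1 under upper-quartile scaling, and Irf1 the day 1 calls under both. Over all transcripts the higher share of called transcripts went from 42% as deposited to 53.9 and 53.1% on day 3, and from 39.6% to 54.2 and 58.0% on day 1.

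Leaving out a library of either day compared lowered the counts here and over all transcripts. Leaving out a library of another day did not always lower them. On day 2, 2 genes were higher without the siCtrl library of day 0 (6.06%, against 5.96% of all transcripts), the siKlf5 library of day 0 (5.88%, against 4.91%) or the siCtrl library of day 2 (6.25%, against 3.68%), and 3 without the siKlf5 library of day 2 (8.82%, against 4.76%). Without either day 0 library the day 2 share was thus near the background. Fewer genes also passed on day 1 without either day 0 library, and on day 3 without any 1 library of day 0 or day 3. Each such fit leaves 1 library on a day, so only median differences are given. On day 1 the median of the genes was 0.30 without the siCtrl library of day 0 and 0.35 without the siKlf5 one. Over all transcripts it was -0.11 and -0.08. On day 3 the genes had 0.20 and 0.21 without the siCtrl or siKlf5 library of day 0 (all transcripts -0.09 in both). They had 0.26 and 0.305 without the siCtrl or siKlf5 library of day 3 (all transcripts -0.09 and -0.08). Eif2ak2 stayed below day 0 on day 3 in all of these fits, by -0.54 to -1.14 (log2), but did not pass without any 1 library of day 0, 2 or 3. Ifi27 passed on every later day in all 8 fits.

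The class I molecules were the most abundant of the genes. B2m, the light chain of MHC class I (chr2:121973423-121978818 in mm9, plus strand), stood at 1302, 1433, 1305 and 1596 FPKM in siCtrl cells on days 0 to 3 and at 1238, 1508, 1626 and 1542 in siKlf5 cells. Its mean was at the 98.9th percentile of expressed transcripts, and its day 3 difference of 0.30 ± 0.13 (log2, SE) did not pass (adjusted p = 0.106). The row overlaps Patl2 on the other strand, which had a mean of 1.00 FPKM. H2-K1, a class I heavy chain (chr17:34132957-34137278, minus strand), stood at 479, 781, 705 and 638 FPKM in siCtrl cells and at 432, 687, 726 and 635 in siKlf5 cells. All 6 later libraries were above both day 0 libraries. H2-K1 rose on day 1 by 0.69 ± 0.11 (log2, SE, limma adjusted p = 0.00369). It was higher by 0.65 on day 2 (adjusted p = 0.00326) and still by 0.48 on day 3 (adjusted p = 0.00938).

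H2-D1, another class I heavy chain (chr17:35400039-35404442, plus strand), stood at 416, 593, 505 and 485 FPKM in siCtrl cells and at 381, 523, 527 and 476 in siKlf5 cells. The order of the days was much like that of H2-K1, with both day 0 libraries lowest. Its rise was 0.48 ± 0.11 on day 1 (limma adjusted p = 0.0168) and 0.37 on day 2 (adjusted p = 0.0352). The row overlaps those of H2-L (mean 548 FPKM) and LOC547349 (mean 453 FPKM) on the same strand, and class I heavy chains are near-identical copies, so reads cannot be assigned to H2-D1 or H2-K1 with certainty.

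Of the 3 catalytic subunits that replace their constitutive counterparts in the immunoproteasome, Psmb10 was the only one above 3 FPKM. Its levels were 60.9, 86.0, 119 and 93.3 FPKM in siCtrl cells and 74.6, 61.9, 109.8 and 119 in siKlf5 cells. Values of both siRNAs on days 2 and 3 lay above all 4 of days 0 and 1. The day 2 difference was 0.75 ± 0.22 (limma adjusted p = 0.0395). Per length, Psmb10 was 6.06 to 14.1% of its counterpart Psmb7, whereas the listed values of Psmb8 reached 0.352% of Psmb5 and those of Psmb9 0.383% of Psmb6. The Psmb8 and Psmb9 values rested on at most 6 recovered reads in a library. For Psmb9 a count of 0 allows up to 6.71 to 17.6 FPKM across libraries at 3 counts, so these shares are not upper bounds. Psmb8 was listed at 0 in 5 libraries and Psmb9 in 6. Tap1, a subunit of the peptide transporter that lies head to head with Psmb9, starts 226 bp apart, lay between 0 to 4.12 FPKM.

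Among the transcription factors, Irf1, the factor that drives many gamma-responsive genes including those of class I (chr11:53583516-53590826, plus strand), was the most abundant per length. It stood at 127, 146, 245 and 157 FPKM in siCtrl cells and at 117, 199, 199 and 163 in siKlf5 cells. Both day 0 libraries were lowest and the siCtrl library of day 2 was highest. The day 2 rise was 0.85 ± 0.18 (limma adjusted p = 0.0102), and the day 3 difference was 0.39 (adjusted p = 0.132).

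Stat2, a subunit of the factor that binds the ISRE, stood at 89.7, 86.1, 117 and 107 FPKM in siCtrl cells and 82.4, 88.6, 109 and 96.8 in siKlf5 cells. Irf9, its DNA-binding partner, kept within a narrow band at 46.9, 41.4, 42.8 and 45.6 FPKM in siCtrl cells and 46.8, 41.3, 47.5 and 47.0 in siKlf5 cells. Neither passed on any day, with Stat2 at 0.39 on day 2 (limma adjusted p = 0.0937) and Irf9 at -0.05 (adjusted p = 0.891). Nlrc5, a coactivator of MHC class I genes, was low at 11.2, 10.2, 11.1 and 7.50 FPKM in siCtrl cells and 11.5, 14.0, 7.46 and 7.86 in siKlf5 cells, and Irf7, which amplifies type I interferon, ran from 0 to 8.91 FPKM with 3 libraries at 0. Neither passed on any day.

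The sensors of foreign nucleic acid were low apart from Ddx58. Ddx58, which encodes the RNA sensor RIG-I (chr4:40150810-40186858, minus strand), stood at 17.7, 31.1, 33.3 and 25.3 FPKM in siCtrl cells and at 15.4, 22.7, 21.9 and 17.7 in siKlf5 cells. The siKlf5 value was the lower on each day. The day 2 difference from day 0 was 0.68 ± 0.31 (limma adjusted p = 0.158). Ifih1, the RNA sensor MDA5, ran from 2.33 to 7.51 FPKM, Dhx58, the related LGP2, from 0.651 to 8.62, and Zbp1, a sensor of Z-form nucleic acid, from 0 to 4.22 with 5 libraries at 0. None of the 4 passed on any day.

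Of the 3 genes in the ISG15 conjugation role group, Isg15, Usp18 and Trim25, only Trim25 was well detected. Trim25 is a ubiquitin and ISG15 ligase that acts on RIG-I. Its values were 75.6, 76.4, 78.2 and 82.0 FPKM in siCtrl cells and 89.1, 90.1, 57.9 and 69.5 in siKlf5 cells, with no day past the threshold. Isg15, the ubiquitin-like modifier, stood at 2.70, 6.22, 5.94 and 5.19 FPKM in siCtrl cells and at 0, 3.99, 4.10 and 0 in siKlf5 cells. All 8 values lay under the limit that a count of 0 allows, 7.13 to 18.7 FPKM across libraries at 3 counts, so differences in Isg15 were not detectable at this depth. Usp18, which removes ISG15, stayed at or under 1.76 FPKM.

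The antiviral effectors ran from 0 to over 100 FPKM. Bst2, tetherin, which holds budding virus at the cell surface (chr8:74058161-74061336, minus strand), stood at 88.4, 124, 150.2 and 80.3 FPKM in siCtrl cells and at 80.3, 102, 135 and 89.0 in siKlf5 cells. Both siRNAs peaked on day 2 and were back near their day 0 value on day 3. The rise was 0.75 ± 0.16 on day 2 (limma adjusted p = 0.0112), against 0.01 on day 3 (adjusted p = 0.991). Eif2ak2, which encodes the RNA-activated kinase PKR, went the other way, at 69.4, 84.5, 68.8 and 41.8 FPKM in siCtrl cells and 91.0, 60.6, 56.1 and 46.1 in siKlf5 cells. The day 3 libraries were the 2 lowest. It fell by 0.84 ± 0.24 on day 3 (log2, SE, limma adjusted p = 0.0309), a call that was lost under both other scalings.

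Ifit2, which binds viral RNA, was the only Ifit gene above 10 FPKM. It stood at 42.5, 36.6, 53.2 and 39.6 FPKM in siCtrl cells and 59.8, 44.3, 29.3 and 40.2 in siKlf5 cells, while its neighbours on chromosome 19, Ifit3 and Ifit1, ran from 0 to 3.91 and from 0 to 8.49 FPKM. All 3 lie within 100 kb on the same strand, and none passed on any day. Rtp4, a receptor transporter protein, stood at 9.39, 9.94, 14.2 and 15.2 FPKM in siCtrl cells and 8.20, 9.56, 12.5 and 7.83 in siKlf5 cells. Oasl2 of the oligoadenylate synthetase family ran from 1.79 to 12.8 FPKM, highest on day 2 with either siRNA. The remaining effectors were Mx1, Mx2, Rsad2, Cmpk2 and Parp14, none of which exceeded 3.85 FPKM in any library. Oas1a was listed at 0 in all 8 libraries, which allows up to 2.85 to 7.47 FPKM.

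Of the other interferon-induced genes, Ifi27, a small mitochondrial protein gene (chr12:104672399-104678455, plus strand), held its call in every fit. It stood at 197, 402, 412 and 416 FPKM in siCtrl cells and at 218, 416, 449 and 428 in siKlf5 cells. The level was about 2-fold higher from day 1 onwards, and the 6 later libraries lay close together. The rise was 0.98 ± 0.10 on day 1 (limma adjusted p = 0.000608), 1.05 on day 2 (adjusted p = 0.00022) and 1.02 on day 3 (adjusted p = 0.000179). The row overlaps Ifi27l2a on the other strand, which had a mean of 35.0 FPKM, and reads were counted without regard to strand.

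Xaf1, which binds the apoptosis inhibitor XIAP (chr11:72115131-72127235, plus strand), stood at 4.71, 30.4, 43.6 and 30.7 FPKM in siCtrl cells and at 6.48, 23.2, 21.4 and 11.2 in siKlf5 cells. It was lowest on day 0 and highest on day 2 in siCtrl cells. The rise was 2.08 ± 0.47 on day 1 (limma adjusted p = 0.0194), 2.28 on day 2 (adjusted p = 0.0101) and 1.59 on day 3 (adjusted p = 0.0337). Ifi35, which binds the STAT-interacting protein NMI, was steady at 105, 108, 121 and 124 FPKM in siCtrl cells and 117, 119, 126 and 112 in siKlf5 cells. Lgals3bp, a secreted galectin-binding glycoprotein, stood at 34.6, 39.0, 59.5 and 45.8 FPKM in siCtrl cells and 43.2, 53.5, 51.9 and 55.3 in siKlf5 cells. Neither passed on any day, and Ifi44 stayed at or under 2.53 FPKM with 5 libraries at 0.

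The interferon-inducible GTPases held, with Xaf1, the largest called changes by fold. Gbp2, a guanylate-binding protein that coats pathogen vacuoles (chr3:142283627-142300972, plus strand), stood at 2.91, 4.15, 16.0 and 20.2 FPKM in siCtrl cells and at 2.06, 7.68, 16.0 and 11.2 in siKlf5 cells. The 4 libraries of days 2 and 3 were all above the 4 earlier ones. Gbp2 rose by 2.30 ± 0.54 on day 2 (limma adjusted p = 0.0169) and by 2.22 on day 3 (adjusted p = 0.0147), which on the log2(FPKM + 1) scale is a fold of 4.91 and 4.64. Its day 0 values rested on 14 and 9 recovered reads, so the size of the fold depends on the pseudocount. The day 2 difference was 2.66 with a pseudocount of 0.1 and 1.49 with a pseudocount of 5. The Gbp2 row overlaps Mir6381 on the other strand, which ran from 0 to 19.5 FPKM (mean 5.54), and reads were counted on both strands. Igtp, also called Irgm3 (chr11:58013058-58021094, plus strand), stood at 3.53, 6.96, 15.6 and 9.67 FPKM in siCtrl cells and at 2.49, 11.9, 13.8 and 9.96 in siKlf5 cells, highest on day 2 with either siRNA. Its day 2 rise was 1.98 ± 0.50 (limma adjusted p = 0.0223), from day 0 values that rested on 14 and 9 recovered reads.

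Irgm1, an autophagy-linked GTPase, was the most abundant of its family at 51.0, 45.6, 77.7 and 80.6 FPKM in siCtrl cells and 53.4, 64.1, 66.9 and 72.1 in siKlf5 cells. It did not pass on any day as deposited, with 0.54 on day 3 (limma adjusted p = 0.103), and passed on day 3 with median-ratio scaling. Gbp3, beside Gbp2 on chromosome 3, ran from 0.565 to 5.96 FPKM, and Iigp1, another pathogen-vacuole GTPase, was listed at 0 in 6 libraries.

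**Figure D3:**
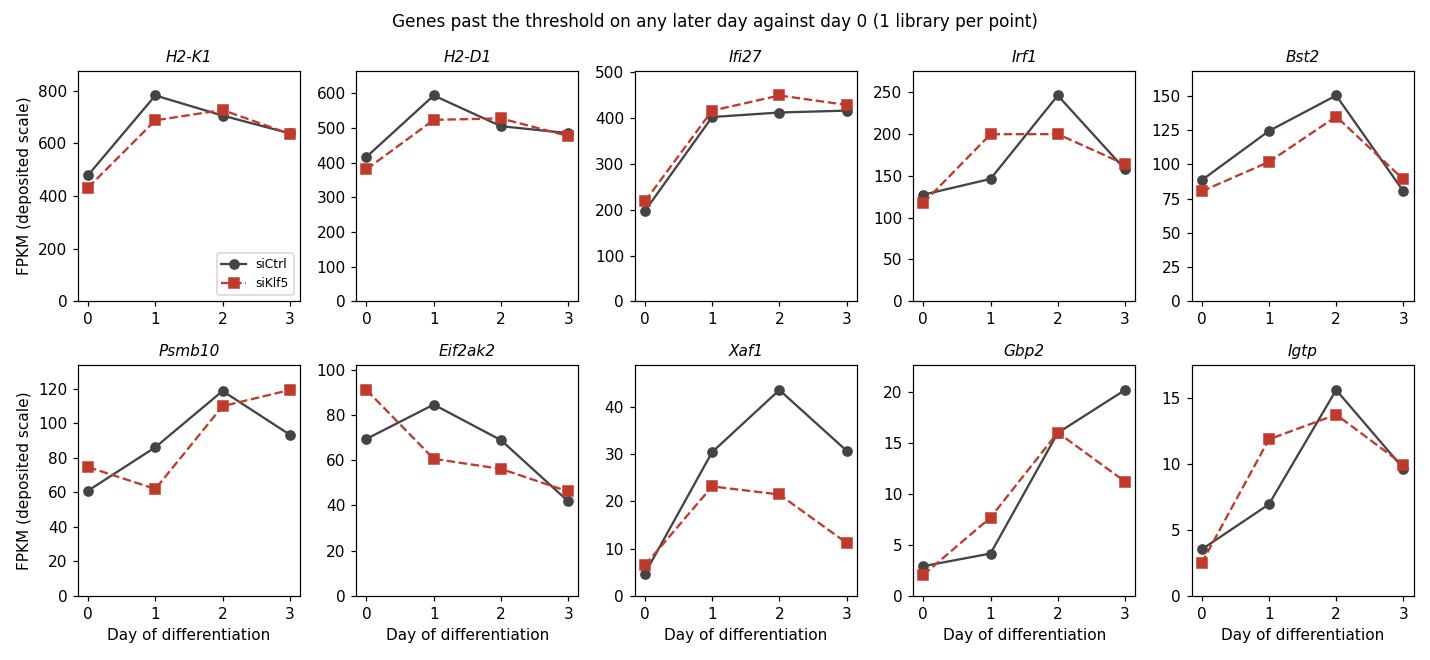
FPKM (y axis, from 0) against day of differentiation (x axis) for the 10 genes past the threshold on any later day, ordered by mean level, with 1 library per point (siCtrl circles, siKlf5 squares) and no error bars since there are no replicates. Day 0 is the lowest or near the lowest point in 9 panels, Bst2 and Igtp peak on day 2 with either siRNA, and Eif2ak2 ends at 41.8 and 46.1 FPKM.

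The second comparison asked whether knockdown of Klf5 moved these genes. Klf5 itself stood at 224, 381, 614 and 933 FPKM in siCtrl cells and at 35.1, 159.6, 192 and 211 in siKlf5 cells, 15.7, 41.9, 31.3 and 22.7% of the control on days 0, 1, 2 and 3. Its fitted difference over the 4 days was -1.92 ± 0.19 (log2, SE, limma adjusted p = 0.0122). For the interferon and antigen presentation genes, the same fit called 0 of 33 higher (background 0.00699%) and 0 lower (background 0.0629%). At an unadjusted p under 0.05 it held 1 of the 33 (3.03%), Isg15, against 9.9% of all transcripts. Isg15 had -1.37 (-2.63 to -0.12, 95% interval, adjusted p = 0.461), and all its values were under the limit given above. The fit makes few calls at all, 1 higher and 9 lower of 14312, so the intervals say more than the count.

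For the 20 genes with a mean of at least 10 FPKM, the fitted ratio of siKlf5 to siCtrl on the FPKM + 1 scale ran from 0.665 to 1.15, with a median difference of -0.03 (log2). All 20 intervals included 0, and 14 lay wholly within 1.5-fold either way. Those 14 were Irf1, Irf9, Stat2, Trim25, Ifit2, Bst2, Eif2ak2, Ifi35, Ifi27, Irgm1, Psmb10, B2m, H2-K1 and H2-D1. The narrowest were those of the abundant genes: H2-K1 at -0.07 (-0.25 to 0.10, limma adjusted p = 0.779), H2-D1 at -0.07 (-0.24 to 0.10), B2m at 0.07 (-0.14 to 0.27) and Ifi27 at 0.09 (-0.07 to 0.25). The widest among them belonged to genes near 10 FPKM, such as Gbp2 at -0.10 (-0.97 to 0.77). Over all 33 genes the intervals reached a median of 0.72 to either side, and the median difference was -0.05, beside 0.01 over all transcripts.

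**Figure D4:**
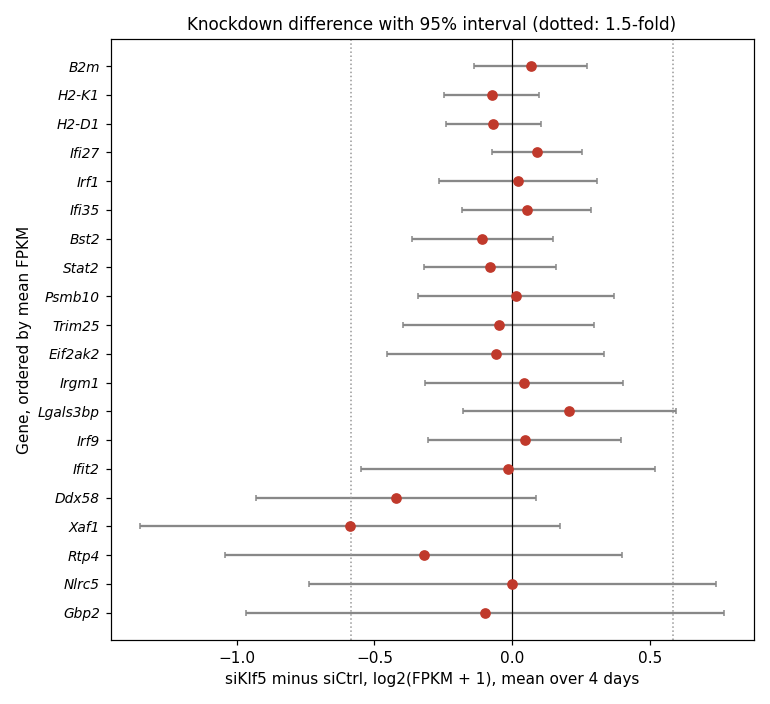
Fitted siKlf5 minus siCtrl difference in log2(FPKM + 1) over the 4 days (x axis) for the 20 genes with a mean of at least 10 FPKM (y axis, ordered by mean), with 95% intervals from limma and dotted lines at 1.5-fold. Every interval crosses 0, and Ddx58 and Xaf1 lie farthest to the left at -0.42 and -0.59.

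Ddx58 and Xaf1 had the largest differences of the 20, and neither passed. Ddx58 was -0.42 (-0.93 to 0.09, limma adjusted p = 0.571), with the siKlf5 library lower on 4 of 4 days. Xaf1 was -0.59 (-1.35 to 0.17, adjusted p = 0.598), with siKlf5 lower on days 1, 2 and 3 and higher on day 0. A fit in which the difference may change with day called 0 of 33 in either direction (background 0% for each). At an unadjusted p under 0.05 it held 1, Xaf1, which fell by 0.59 per day relative to the control, with a limma adjusted p = 0.987, against 4.9% of all transcripts.

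Within a day, 2 libraries are compared with no test, and the count is of ratios past 1.5-fold on the FPKM + 1 scale. On day 0, 6 of 33 genes were higher in siKlf5 cells (18.2%, background 8.18%) and 4 were lower (12.1%, background 10%). On day 1, 5 were higher (15.2%, background 15.6%) and 5 lower (15.2%, background 10.3%). On day 2, 2 were higher (6.06%, background 6.78%) and 7 lower (21.2%, background 11.6%). On day 3, 3 were higher (9.09%, background 9.9%) and 5 lower (15.2%, background 11.6%). Most of these were genes with a mean under 10 FPKM, such as Dhx58, Zbp1, Irf7, Ifit3, Mx2 and Tap1. With a minimum mean of 5 FPKM the counts of higher and lower genes were 1 and 0 for day 0, 2 and 0 for day 1, 0 and 2 for day 2, and 0 and 3 for day 3. The share of all transcripts at that minimum was not computed, so these smaller counts have no background and cannot be read as a trend. Genes that kept 1 direction on all 4 days were Ifi27 and Tap1, higher (2 of 33, 6.06%, background 9.05%), and Ifih1, Ddx58, Isg15, Mx2 and Rtp4, lower (5 of 33, 15.2%, background 9.03%).

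**Figure D5:**
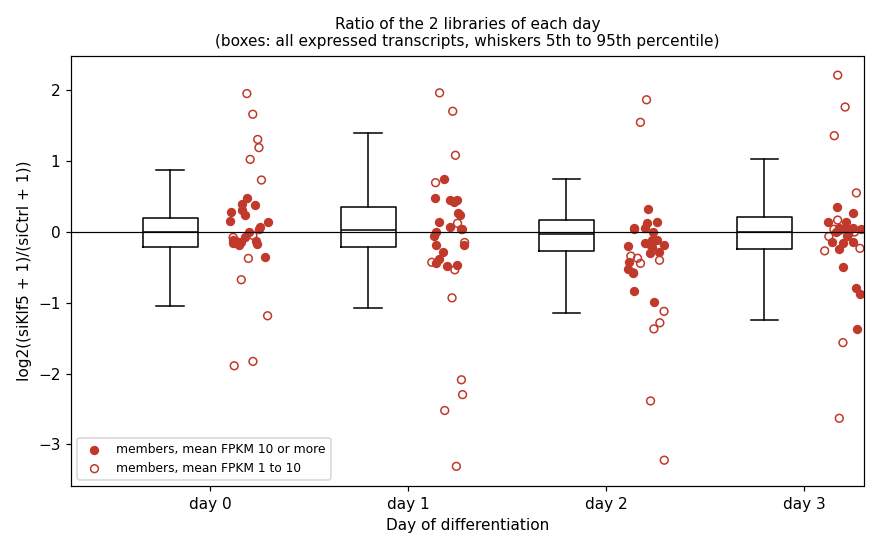
Log2 ratio of siKlf5 to siCtrl FPKM + 1 (y axis) on each day (x axis) for the 33 fitted genes, filled where the mean is at least 10 FPKM and open where it is 1 to 10, beside boxes for all 14312 expressed transcripts (quartiles, whiskers at the 5th and 95th percentiles). Filled points run from -1.38 (Xaf1, day 3) to 0.75 (Gbp2, day 1), with Rtp4 at -0.88 and Gbp2 at -0.80 on day 3, while the open ones spread more widely on every day.

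Among genes of at least 10 FPKM, a few within-day ratios exceeded counting error. Xaf1 was -0.99 (-1.87 to -0.25) on day 2 and -1.38 (-2.67 to -0.27) on day 3, as log2 ratios with exact 95% intervals. Ifit2 was -0.84 (-1.42 to -0.31) on day 2, where Ddx58 was -0.58 (-1.22 to -0.04), Irf1 -0.30 (-0.61 to -0.01), Trim25 -0.43 (-0.79 to -0.11), and B2m 0.32 (0.13 to 0.49). These intervals cover counting error only, with each 6 recovered reads taken as 1 count, and cover no spread between cultures. The ratios named were picked from those of all 20 genes on 4 days, with no correction for their number. The siCtrl library of day 2 had 20301506 recovered reads and the others 7850497 to 12366627, and the part of depth in these ratios was not tested. Counting kept at most 3 reads per position. B2m is short, at 852 bases, and had 3734 recovered reads in siCtrl and 2693 in siKlf5 cells on day 2. The part of this cap in its ratio was not tested.

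The remaining genes of the pathway give the setting of these levels. Their lists were also chosen with earlier results of these data known. Of 10 interferon ligand genes 8 were in the table, Ifnb1, Ifna1, Ifna2, Ifna4, Ifna5, Ifng, Ifnk and Ifne, and all 8 were listed at 0 in every library. For Ifnb1 that allows up to 6.99 to 18.3 FPKM and for Ifng up to 4.46 to 11.7. Genes of the receptors and of JAK-STAT signalling were expressed, with Stat3 at a mean of 364 FPKM. The receptor chains Ifnar1, Ifnar2, Ifngr1 and Ifngr2 had means of 106, 123, 157 and 218 FPKM, the kinases Jak1, Jak2 and Tyk2 of 250.1, 43.1 and 108, and the feedback inhibitors Socs1 and Socs3 of 54.3 and 92.2. On day 3, Ifngr1 (0.43, log2, limma adjusted p = 0.038), Ifngr2 (0.57, adjusted p = 0.0462) and Stat3 (0.96, adjusted p = 0.000331) were higher, while Socs1 was lower (-2.14, adjusted p = 0.000981). Socs1, which blocks JAK kinases, stood at 124, 61.0, 35.8 and 34.5 FPKM in siCtrl cells and at 82.8, 49.99, 32.2 and 14.2 in siKlf5 cells, lower on each successive day with either siRNA.

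Of 16 expressed other class I genes, 5, 5 and 2 were higher on days 1, 2 and 3 (31.2, 31.2 and 12.5%, against 6.76, 11.7 and 13% of all transcripts), and 0 were lower. Those of day 1 include H2-L, whose row overlaps that of H2-D1 on the same strand, so the calls of H2-L and H2-D1 may share reads. The non-classical heavy chain H2-T23 rose by 1.41 on day 3 (limma adjusted p = 0.00117) and Tapbp, tapasin, which loads peptide on class I, by 0.72 (adjusted p = 0.00231). Of 33 expressed other interferon-stimulated genes, 4, 5 and 5 were higher on days 1, 2 and 3 (12.1, 15.2 and 15.2%), and 0, 1 and 3 were lower (0, 3.03 and 9.09%, against 10.3, 12.1 and 18% of all transcripts). Among those of day 3 were Uba7, the ISG15-activating enzyme (2.52), and Ly6e, a membrane protein (-1.15). Of 11 expressed sensing adaptors and kinases, 0 were higher on any day and 1, 1 and 3 lower on days 1, 2 and 3 (9.09, 9.09 and 27.3%), on day 3 Mb21d1 (-1.62), Ticam1 (-1.02) and Myd88 (-0.86). Of 12 expressed NF-kB targets, 1, 3 and 1 were higher on days 1, 2 and 3 (8.33, 25 and 8.33%), and on day 3 Relb was higher (1.98) and Vcam1 lower (-0.50). Of 7 MHC class II genes 1 was expressed and did not pass, nor did Psmb5, Psmb6 and Psmb7 on any day. In the knockdown fit 0 of the 87 expressed genes of these lists passed.

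The cells carried the markers of their label. All 8 muscle markers were expressed, and 6 of them rose on day 3, including Myog, Myh3 and Ckm. Of 11 immune cell markers, Cd3e and Nkg7 were listed at 0 throughout and Ptprc, the pan-leukocyte marker, did not exceed 0.707 FPKM, while Lyz2 and Cd68 reached 65.0 and 23.5 FPKM. The 11 summed to 27.6 to 87.5 FPKM and the 5 endothelial markers to 0.826 to 5.36, and none passed in either comparison.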

How the data were processed

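RNA from siCtrl and siKlf5 C2C12 cells was sequenced on 4 days, 1 library per siRNA and day. The authors aligned reads to mm9 with STAR and counted them on RefSeq exons with HOMER, on both strands, with at most 3 reads per position and 1 transcript per gene; versions are not given in the sources used here. The deposited values are FPKM, here reads per kilobase of exon with the library total set to 10000000. The table's 8 other per-sample columns, on a log scale, were not used. Whole reads were recovered from the FPKM steps and transcript lengths (all checked values within 0.1 of a whole read), giving 7850497 to 20301506 reads per library. Reads came in steps, so exact 95% intervals and limits for 0 (3 counts) take 6 reads as 1 count and cover counting error only.

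The 14312 transcripts that averaged 1 FPKM or more were fitted with limma 3.58.1 (R 4.3.3, trend) on log2(FPKM + 1), with day as a factor and siRNA, leaving 3 residual degrees of freedom (2 with the change per day). Calls used a Benjamini-Hochberg adjusted p under 0.05 over all of them. P-values measure the spread between these libraries, which also holds any change of the difference with day. The fit was tested on simulated data. Alternatives were pseudocounts of 0.1 and 5, no filter, a mean of at least 5, 2 other scalings, a 2-fold limit, day as a number, and each library left out. The members, role groups and lists (ligands, receptors and JAK-STAT, sensing adaptors, other interferon-stimulated genes, other class I, class II, constitutive proteasome, NF-kB targets, muscle, immune and endothelial markers) were chosen with earlier results of these data known. Values per library are given for members with a mean of at least 10 FPKM or past the threshold; Isg15 and Socs1 were added after their values were seen. Promoters came from RefSeq (GRCm38.p6) by symbol, while all other positions are in mm9; no sequence is given for the 10 genes without an entry. At the mm9 positions, a GENCODE release annotated 41 of the 42 genes, 40 as protein-coding; each row covers a gene's exons. The ChIP-seq samples of the series were not used here, and 1 gene of the receptor and JAK-STAT list is not reported here.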

Additional observations from a re-analysis of the deposited data

How the results depend on the processing

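The knockdown fits called 0 of these genes under every alternative. Over all transcripts the count higher and lower was 1 and 9, against 2 and 13 with a minimum mean of 5 FPKM, 1 and 2 with day as a number, and 0 to 1 and 0 to 3 without 1 library; for the change per day, 0 and 0 became up to 10 and 15. Of the 18 calls of single genes between days, 13 held under all 6 other settings, 3 (Ifi27) held without each library in turn, and direction held in all 252 alternatives. Counts higher than day 0 ranged over the fits without 1 library from 1 to 4 for day 1, from 2 to 9 for day 2 and from 1 to 6 for day 3. The count lower for day 3 ranged from 0 to 1. With no filter, 1 of 41 genes was lower on day 1 (Rsad2, 2.44%, against 6.03% of all transcripts) and 2 on day 3 (4.88%, against 11.7%). On day 3, median-ratio scaling gave 9 higher (27.3%, against 15.6% of all transcripts) and 0 lower (against 13.3%). Upper-quartile scaling gave 7 higher (21.2%, against 15.5%) and 0 lower (against 13.6%). The cause of these shifts was not tested. The median difference over all transcripts moved by over 0.1 with upper-quartile scaling on day 1, from -0.08 to 0.04.

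Within days, a minimum mean of 5 FPKM (22 genes) gave for day 0, 1 higher and 0 lower, for day 1, 2 and 0, for day 2, 0 and 2, and for day 3, 0 and 3. A pseudocount of 5 gave 2 lower on day 0 and 2 higher on day 1. A 2-fold limit gave 3 higher on day 1 and 3 lower on day 3. Shares of all transcripts were not computed for these within-day alternatives, so their counts have no background. The knockdown fit already pairs the 2 libraries of each day, and the labels give no replicate numbers for another block. With 8 libraries and 1 per condition, the depth leaves Isg15 without a measurable difference.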
